A study of Mus musculus with 9 samples.

Results

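The necroptosis and TNF receptor complex genes examined here were *Ripk1*, *Ripk3*, *Mlkl*, *Tnf*, *Tnfrsf1a*, *Tradd*, *Traf2*, *Cyld*, *Birc2* and *Rbck1*. They were chosen by symbol from the known members of the pathway, with earlier results of these data known. All 10 matched 1 gene each among the 54838 genes of the RNA-seq tables. Messenger RNA was measured by bulk RNA-seq in 7 libraries of small intestinal organoids, miniature epithelia grown from crypts in culture, and given as FPKM, mapped fragments scaled to the length of the transcript and to the size of the library. The genotype of every group was *Vil-CreERT2*;*Mettl3* fl/fl, and the methods give male mice of 2 to 4 months for the study's animals. In these mice the villin promoter drives a Cre recombinase in the intestinal epithelium that 4-hydroxytamoxifen (4-OHT) activates, and both alleles of *Mettl3*, a writer of the m6A mark on RNA, carry loxP sites. There were 2 libraries of EtOH DMSO, 2 of EtOH Nec-1, 2 of 4-OHT DMSO and 1 of 4-OHT Nec-1, making 4 groups. Ethanol (EtOH, the solvent) or 0.5 µM 4-OHT was given for 2 days, and DMSO (the solvent) or Nec-1, an inhibitor of the kinase activity of RIPK1, for 5 days. Nec-1 is stated at 5 µM in a legend but at 10 µM in the methods. No group received 4-OHT without the Cre, so the drug and the excision cannot be told apart.

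TNF binds its receptor TNFR1, encoded by *Tnfrsf1a*, and a complex then forms at the membrane in which TRADD, TRAF2, RIPK1 and the ubiquitin ligases cIAP1 (*Birc2*) and LUBAC (with HOIL-1, *Rbck1*) drive NF-κB signalling. When the ubiquitin chains on RIPK1 are removed, as by the deubiquitinase CYLD, RIPK1 can join FADD and caspase-8, and with caspase-8 inactive its kinase activity engages RIPK3, which phosphorylates MLKL, the protein that permeabilises the plasma membrane. The intestinal epithelium is a tissue in which deletion of regulators of this pathway is known to cause cell death and inflammation. The FPKM report messenger RNA, and none of the phosphorylation or ubiquitin steps can be read from them.

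The deleted gene was checked first. EtOH DMSO libraries had 2.70 and 2.71 FPKM of *Mettl3* and EtOH Nec-1 libraries 2.41 and 2.47 FPKM. The libraries labelled 4-OHT DMSO had 3.72 and 4.14 FPKM and the one labelled 4-OHT Nec-1 had 3.36 FPKM. It was therefore not lower in the libraries labelled 4-OHT, and a value over the whole gene does not read the excised part. Every direction below is between libraries as labelled. FPKM summed to 450207 to 498712 per library, 11559 to 12038 genes reached 1 FPKM, and the spacing of the lowest values put relative depth at 0.851 to 1.03. The fragment counts behind single values are unknown. Epithelial markers summed to 2205 to 3070 FPKM, while none of 5 fibroblast and none of 3 endothelial markers reached 1 FPKM in any library. In the libraries labelled 4-OHT DMSO, all 6 Paneth cell markers passed the test against EtOH DMSO as higher. Their summed level was 19155 to 19688 FPKM against 7399 to 8169 in EtOH DMSO. All 5 goblet and all 4 enteroendocrine markers also passed as higher, and 3 of 5 stem cell markers as lower. Of the 6 epithelial markers 4 passed as higher and 0 as lower, and of 5 enterocyte markers 2 as higher and 2 as lower. Of all genes tested 24.5% were called higher and 16.7% lower. In bulk libraries fewer cells of a type and less RNA per cell cannot be told apart, and the part of these cell types in the results below was not tested.

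Where the transcripts start is shown for the target of Nec-1, *Ripk1*, and for the 2 genes with the largest rises, *Tnf* and *Mlkl*, since these 3 carry the comparisons that follow. The windows are RefSeq promoter windows of GRCm38.p6, from 250 bases before to 50 bases after an annotated start, and 12 such windows matched 9 of the 10 genes, all but *Tradd*. Both strands were searched for the letters GAAA followed after any 2 bases by GAAA (interferon-stimulated response element core), TTCNNNGAA (GAS), GGG followed after any 2 bases by TTTCC (NF-κB), TGACGTCA (CRE) and TGANTCA (AP-1). Matches stand in capitals, and sequences run 5′ to 3′ on the gene's strand.
Ripk1, chr13:34002624-34002923 (+): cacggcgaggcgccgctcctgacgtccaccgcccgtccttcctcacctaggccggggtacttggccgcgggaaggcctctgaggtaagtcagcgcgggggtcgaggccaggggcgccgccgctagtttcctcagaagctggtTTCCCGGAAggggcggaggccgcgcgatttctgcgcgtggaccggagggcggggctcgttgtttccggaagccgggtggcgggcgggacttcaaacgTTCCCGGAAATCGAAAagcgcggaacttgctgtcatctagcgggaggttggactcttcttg
Mlkl, chr8:111338156-111338455 (-): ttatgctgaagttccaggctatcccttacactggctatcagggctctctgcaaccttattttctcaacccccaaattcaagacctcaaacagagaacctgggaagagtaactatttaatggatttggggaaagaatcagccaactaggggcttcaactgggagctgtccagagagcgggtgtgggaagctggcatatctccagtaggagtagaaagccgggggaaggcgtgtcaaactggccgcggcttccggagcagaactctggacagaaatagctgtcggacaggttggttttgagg
Tnf, chr17:35201958-35202257 (-): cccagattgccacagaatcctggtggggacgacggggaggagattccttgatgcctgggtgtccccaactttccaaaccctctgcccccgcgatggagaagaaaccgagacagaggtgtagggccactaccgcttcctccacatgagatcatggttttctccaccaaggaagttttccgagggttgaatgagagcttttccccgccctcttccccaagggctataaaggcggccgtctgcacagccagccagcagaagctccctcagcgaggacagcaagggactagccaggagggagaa
The *Ripk1* window held 2 GAS matches, at -108 and -11 from the start, and 1 response element core at -5, which shares 3 bases with the second GAS match. Of 32817 windows genome-wide, 8.29% held the GAS letters and 3.43% the response element core. The windows shown for *Mlkl* and *Tnf*, the window of *Ripk3* and the other window of *Ripk1* held none of the 5 motifs, which says only that these letters are not in these windows. Among the other genes, GAS letters stood at -244 in *Tnfrsf1a*, NF-κB letters at 31 in *Traf2* and at -155 in *Cyld*, CRE letters at -35 in 1 window of *Birc2*, and the response element core at -21 in 1 window of *Rbck1*. NF-κB letters were in 1.63%, CRE letters in 1.79% and AP-1 letters in 7.81% of all windows, and no window of the 10 genes held the AP-1 letters. A match is a run of letters and no binding was measured.

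In EtOH DMSO organoids the receptor and RIPK3 transcripts were the most abundant of the 10 per length, at mean levels of 33.7 FPKM for *Tnfrsf1a* and 33.0 FPKM for *Ripk3*, whose ranges overlapped. *Tradd* followed at 22.3 FPKM, *Rbck1* at 16.4 FPKM and *Birc2* at 7.45 FPKM, each apart from its neighbours in the order. *Traf2* at 3.64 FPKM overlapped both *Mlkl* at 3.80 and *Ripk1* at 3.52 FPKM, which did not overlap each other, and the ranges of *Cyld* at 1.67 and *Tnf* at 1.19 FPKM overlapped. The order was different in 4-OHT DMSO, where *Ripk3* was highest at a mean of 51.0 FPKM, ahead of *Tradd* at 37.8 and *Tnfrsf1a* at 31.9 FPKM. There *Rbck1* at 16.4, *Mlkl* at 15.5 and *Tnf* at 13.7 FPKM came next, and the range of *Mlkl* overlapped those of both others. *Ripk1* followed at 8.29, *Birc2* at 5.97, *Traf2* at 3.56 and *Cyld* at 2.30 FPKM. The summed level of the 10 genes was 124 and 129 FPKM in the EtOH libraries with DMSO and 110 and 115 FPKM in those with Nec-1. In the libraries labelled 4-OHT it was 173 and 199.9 FPKM with DMSO and 163 FPKM with Nec-1.

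**Figure D1:**
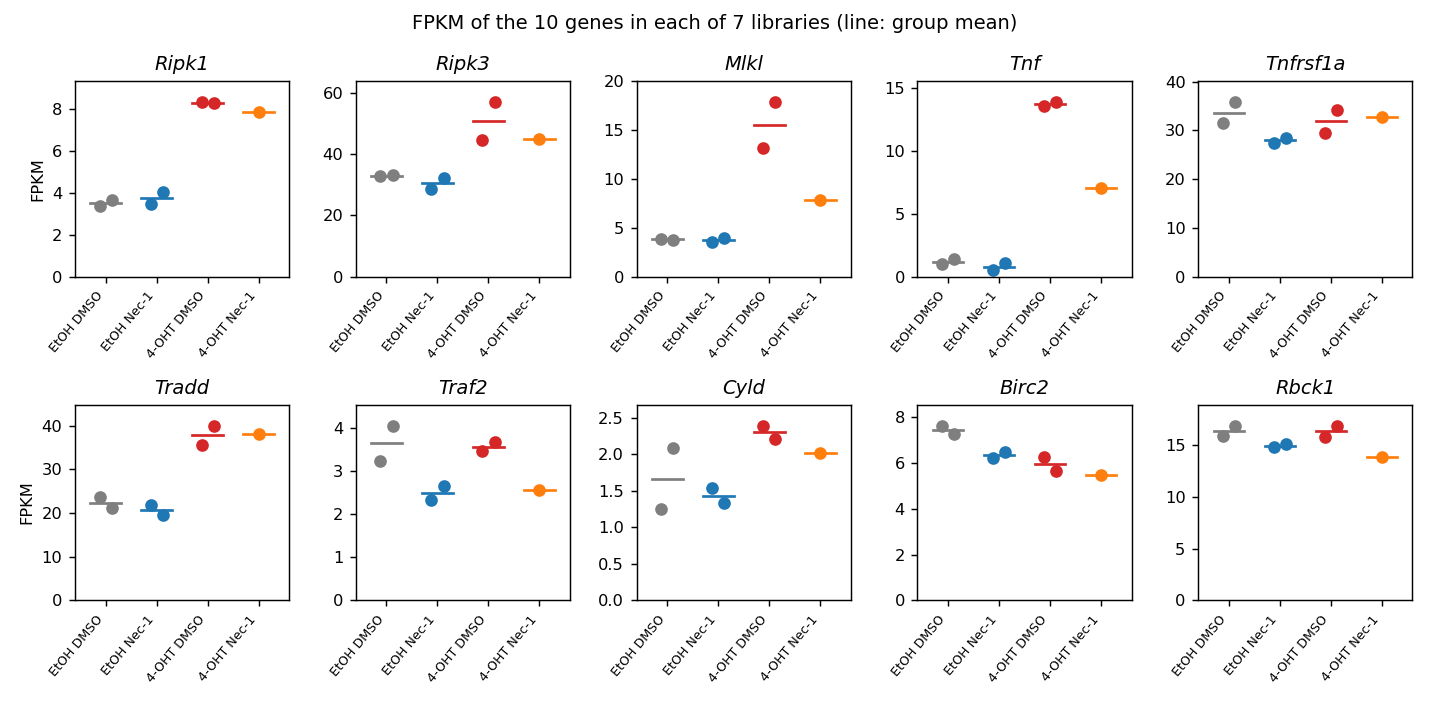
FPKM of each of the 10 genes (vertical axes, each from 0) in the 7 libraries, by group. Points are libraries and lines are group means. For *Ripk1*, *Ripk3*, *Mlkl*, *Tnf* and *Tradd* all 3 libraries labelled 4-OHT lie above all 4 EtOH libraries, and for *Mlkl* and *Tnf* the 4-OHT Nec-1 library lies between the 4-OHT DMSO and the EtOH libraries.

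The comparison of 4-OHT DMSO with EtOH DMSO asked which of these genes differ after induction of the Cre in organoids without inhibitor. The ligand, the adaptor TRADD, both kinases and MLKL rose, and the receptor, TRAF2 and the ubiquitin enzymes did not pass the test. Counted over the 10 genes, 5 were higher and 0 lower with an adjusted p under 0.05 by limma on log2(FPKM + 1), adjusted over 12702 genes. Of all genes tested 24.5% were called higher, 16.7% lower and 41.2% either way, and at an unadjusted p under 0.05 *Birc2* was also lower. With median centring the calls over all genes were split into 2213 higher and 3187 lower, and with upper quartile scaling into 1662 and 2989, against 3117 and 2120 as deposited. Over all genes the median went from 0.08 to -0.08 with the first and to -0.12 with the second, and the same 5 of the 10 genes were called higher with each of these scalings. The median log2 fold change was 0.46 over the 10 genes. Both 4-OHT DMSO libraries lay above both EtOH DMSO libraries for 6 of the 10 genes and below both for 1, where 40.7% of all genes tested lay above and 30.8% below. No source says that the libraries of a group came from separate cultures or animals, so the p-values measure the spread between these libraries, which may be technical.

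*Tnf*, the ligand, was at 1.00 and 1.38 FPKM in EtOH DMSO and at 13.6 and 13.9 FPKM in 4-OHT DMSO. It was the gene of the 10 with the largest difference, the groups did not overlap, and the ratio of mean FPKM was 11.5. The log2 fold change was 2.76 with a standard error (SE) of 0.18 (limma, adjusted p = 0.000603), on the log2(FPKM + 1) scale, which understates the change of genes near 1 FPKM. Leukocytes are a known source of TNF, and of 7 leukocyte markers 3 reached 1 FPKM in any library. The summed level of those 7 was 3.38 to 3.54 FPKM in EtOH DMSO and 6.71 to 9.03 in 4-OHT DMSO. Of the 3 tested only *Cd68* passed as higher, where 24.5% of all genes tested were called higher. *Ptprc*, the pan-leukocyte marker CD45, stayed at or below 0.0497 FPKM in all 7 libraries. Which cells the *Tnf* transcripts came from was not tested.

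*Tnfrsf1a*, the receptor for that ligand, had 31.5 and 35.8 FPKM in EtOH DMSO and 29.6 and 34.2 FPKM in 4-OHT DMSO. The groups overlapped, with a log2 fold change of -0.08 (SE 0.11, limma adjusted p = 0.598). *Tradd*, the adaptor with a death domain that binds the receptor, was at 23.6 and 21.1 FPKM in EtOH DMSO and at 35.7 and 40.0 FPKM in 4-OHT DMSO. Both 4-OHT DMSO libraries were above both EtOH DMSO libraries, and the log2 fold change was 0.73 (SE 0.11, limma adjusted p = 0.00476). *Traf2*, the adaptor that brings the cIAP ligases to the complex, had 3.24 and 4.04 FPKM in EtOH DMSO and 3.45 and 3.66 in 4-OHT DMSO. Its 4-OHT DMSO values lay inside the EtOH DMSO range (log2 fold change -0.02, SE 0.13, limma adjusted p = 0.910).

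None of the ubiquitin enzymes passed the test. *Birc2*, which encodes a ligase that modifies RIPK1, was at 7.64 and 7.26 FPKM in EtOH DMSO and at 6.27 and 5.68 FPKM in 4-OHT DMSO. It was lower in 4 of 4 pairings of libraries, with a log2 fold change of -0.28 (SE 0.09) that missed the threshold (limma adjusted p = 0.0584). The call depended on scaling, since with median centring it was -0.44 (limma adjusted p = 0.0173) and with upper quartile scaling -0.49 (limma adjusted p = 0.0360). *Rbck1*, a LUBAC subunit, had 15.9 and 16.9 FPKM in EtOH DMSO and 15.8 and 16.9 FPKM in 4-OHT DMSO. The ranges coincided almost entirely, and the log2 fold change was -0.0033 (SE 0.08, limma adjusted p = 0.979). *Cyld*, the deubiquitinase, was at 1.25 and 2.08 FPKM in EtOH DMSO and 2.39 and 2.21 FPKM in 4-OHT DMSO. Both 4-OHT DMSO libraries were higher than both EtOH DMSO libraries, but the EtOH DMSO libraries stood apart from each other, and the log2 fold change of 0.33 (SE 0.18) did not pass (limma adjusted p = 0.191). Without the second EtOH DMSO library it was 0.55 and passed (limma adjusted p = 0.0476), with the lone library left in that group assumed to vary like the other groups.

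*Ripk1*, the kinase that Nec-1 inhibits, was at 3.37 and 3.66 FPKM in EtOH DMSO and at 8.32 and 8.26 FPKM in 4-OHT DMSO. The groups were apart by more than their spread, with a ratio of mean FPKM of 2.36 and a log2 fold change of 1.04 (SE 0.10, limma adjusted p = 0.00155). *Ripk3*, the kinase downstream of RIPK1, had 32.9 and 33.1 FPKM in EtOH DMSO and 44.8 and 57.2 in 4-OHT DMSO. The 4-OHT DMSO libraries were both higher but differed from each other by more than the EtOH DMSO libraries did. Its log2 fold change was 0.60 (SE 0.14, limma adjusted p = 0.0191), and the call was lost with no filter on low values (limma adjusted p = 0.0625) or without the first or the second EtOH DMSO library (limma adjusted p = 0.0807 and 0.0757). *Mlkl*, the executioner, was at 3.83 and 3.77 FPKM in EtOH DMSO and at 13.1 and 17.9 FPKM in 4-OHT DMSO. It had the second largest difference of the 10 genes, with a ratio of mean FPKM of 4.08 and a log2 fold change of 1.77 (SE 0.15, limma adjusted p = 0.00118). By the added requirement of at least 1 log2 unit 3 of the 10 genes, *Tnf*, *Mlkl* and *Ripk1*, were higher, against 6.72% of all genes tested.

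**Figure D2:**
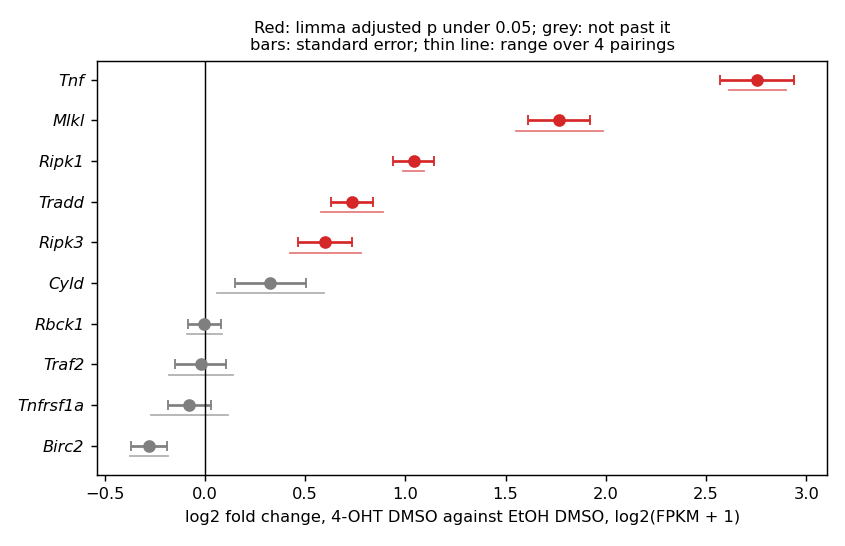
Log2 fold change on log2(FPKM + 1) of the 10 genes (vertical axis) in 4-OHT DMSO against EtOH DMSO (horizontal axis). Points with bars are limma estimates with their SE, thin lines span the 4 pairings of libraries, and red marks an adjusted p under 0.05. The 5 red genes run from 0.60 for *Ripk3* to 2.76 for *Tnf*, and the others lie between -0.28 and 0.33.

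The surrounding pathway was described with 73 further genes in 5 lists, of which 61 passed the filter on low values. In 4-OHT DMSO against EtOH DMSO, 28 of the 61 were called higher and 3 lower by limma, with a median log2 fold change of 0.34 beside 0.08 for all genes tested, of which 24.5% were called higher and 16.7% lower. The counts of each list are to be read against these shares, and the lists were chosen with earlier results of these data known. They are counts as deposited and were not repeated with the other scalings. Over all genes those scalings called fewer genes higher, 2213 with median centring and 1662 with upper quartile scaling in place of 3117. The death-inducing partners, which join RIPK1 or RIPK3 in the complexes that kill the cell, had 5 of 6 tested genes higher and 0 lower, at a median of 0.69. Not all of them promote death. Among the 5 was *Cflar* (log2 fold change 0.44, SE 0.11, limma adjusted p = 0.0278), whose product cFLIP the study describes as acting against cell death. By quantitative PCR the study reported *Cflar* as lower in sorted stem cells and crypt cells of mice lacking *Mettl3*. Those cells and that method differ from the organoid libraries here. *Zbp1*, a nucleic acid sensor that can engage RIPK3 without TNF, had the largest change, from 0.03 and 0.07 FPKM in EtOH DMSO to 8.09 and 10.1 FPKM in 4-OHT DMSO (log2 fold change 3.26, SE 0.14, limma adjusted p = 0.000306). *Zbp1* reached 1 FPKM, the level of the filter, only in the 4-OHT DMSO libraries, so its place in the count depends on its rise. *Casp8*, the caspase that restrains necroptosis, was the 1 not called, with 48.7 and 50.6 FPKM in EtOH DMSO and 46.8 and 54.2 FPKM in 4-OHT DMSO (log2 fold change 0.02, SE 0.09, limma adjusted p = 0.884). It was chosen for mention after its values were seen.

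Of the TNF target genes, 14 of 20 were tested, 7 were higher and 0 lower, and the median log2 fold change was 0.51. *Cxcl10*, a chemokine also induced by interferons, went from 0.04 and 0.09 FPKM in EtOH DMSO to 6.45 and 6.64 FPKM in 4-OHT DMSO (log2 fold change 2.82, SE 0.11, limma adjusted p = 0.000275). It reached 1 FPKM only in libraries labelled 4-OHT, so its place among the tested genes depends on its rise. *Irf1*, a transcription factor that TNF and interferons both induce, rose by 1.65 log2 units (SE 0.11, limma adjusted p = 0.000608), and *Junb*, a subunit of AP-1, by 1.16 (SE 0.10, limma adjusted p = 0.00116). *Nfkbia*, *Nfkb1*, *Nfkb2* and *Ier3* were the other 4 called. Among the ubiquitin and kinase partners, 8 of 21 tested genes were higher and 2, *Mapkapk2* and *Tab1*, lower, at a median of 0.28. *Birc3*, which encodes cIAP2, the close relative of the *Birc2* product, went from 5.49 and 6.21 FPKM to 19.98 and 19.9 FPKM (log2 fold change 1.61, SE 0.12, limma adjusted p = 0.000762), beside the -0.28 of *Birc2* itself. The ligands, receptors and shedding factors had 3 of 7 tested genes higher, *Tnfrsf1b*, *Tnfrsf10b* and *Adam17*, and 1, *Tnfsf10*, lower, at a median of 0.32. The chaperones, phosphatases and others acting on RIPK3 or MLKL had 5 of 13 higher and 0 lower, at a median of 0.16.

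**Figure D3:**
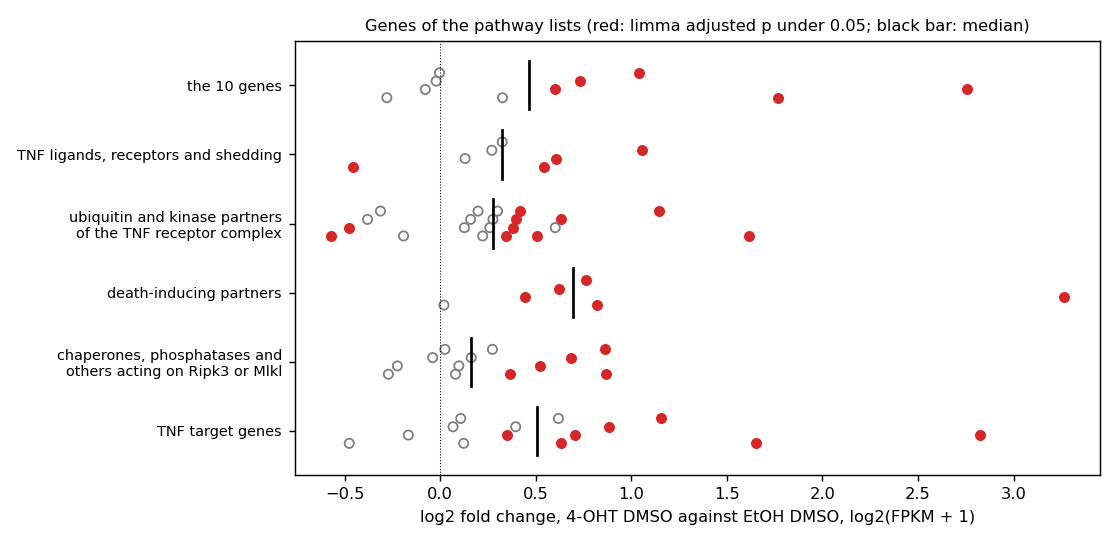
Log2 fold change on log2(FPKM + 1) in 4-OHT DMSO against EtOH DMSO (horizontal axis) for the 10 genes and the tested genes of the 5 lists (vertical axis). Each circle is a gene, red is an adjusted p under 0.05 by limma, and the black bar is the list's median. Medians run from 0.16 for the chaperones and phosphatases to 0.69 for the death-inducing partners, and *Zbp1* is farthest right at 3.26.

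In EtOH organoids Nec-1 was compared with DMSO to ask what the inhibitor does where no 4-OHT was given. This comparison shares the EtOH DMSO libraries with the one above. By limma 0 of the 10 genes were called in either direction, beside 0.173% of all genes tested called higher, 0.0472% called lower and 0.22% either way, and 1, *Traf2*, had an unadjusted p under 0.05. *Traf2* was at 2.32 and 2.65 FPKM in EtOH Nec-1 against 3.24 and 4.04 in EtOH DMSO, lower in 4 of 4 pairings (log2 fold change -0.41, SE 0.13, limma unadjusted p = 0.0203, adjusted p = 0.308). The libraries of the groups did not overlap for 5 of the 10 genes, *Ripk3*, *Tnfrsf1a*, *Traf2*, *Birc2* and *Rbck1*, each lower with Nec-1, and 39.1% of all genes tested were lower in this sense. The median log2 fold change was -0.12 over the 10 genes and -0.09 over all.

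For the ligand, the executioner and the target of Nec-1 the groups overlapped. *Tnf* was at 0.497 and 1.07 FPKM in EtOH Nec-1, overlapping the 1.00 and 1.38 of EtOH DMSO (log2 fold change -0.31, SE 0.18, limma adjusted p = 0.519). The ratio of mean *Tnf* FPKM was 0.66, and with a pseudocount of 0.1 the log2 fold change was -0.61 (limma adjusted p = 0.495). *Mlkl*, at 3.56 and 3.95 FPKM, spanned the EtOH DMSO values (log2 fold change -0.02, SE 0.15, limma adjusted p = 0.982), and its sign was positive with median centring and upper quartile scaling. *Ripk1*, the target of the inhibitor, was at 3.47 and 4.03 FPKM (log2 fold change 0.07, SE 0.10, limma adjusted p = 0.798). *Ripk3* had 28.7 and 32.4 FPKM (log2 fold change -0.11, SE 0.14, limma adjusted p = 0.753). *Tnfrsf1a* was at 27.5 and 28.4 FPKM, below both EtOH DMSO libraries but not past the threshold (log2 fold change -0.26, SE 0.11, limma adjusted p = 0.389). The remaining genes, *Tradd*, *Cyld*, *Birc2* and *Rbck1*, had log2 fold changes of -0.20 to -0.11 with adjusted p of 0.430 to 0.814 by limma. Of the 61 tested pathway genes limma called 0, 10 had an unadjusted p under 0.05, the lowest adjusted p was 0.140, and the median log2 fold change of the 61 was -0.12. The share of all genes tested at that unadjusted cut was not counted, so neither these 10 nor *Traf2* above can be set against it. The 5 stem cell markers summed to 32.6 to 34.8 FPKM in EtOH Nec-1 against 46.1 to 47.8 in EtOH DMSO, each lower in both libraries though not called, and the part of these cells was not tested.

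In the libraries labelled 4-OHT the same question was asked with 1 Nec-1 library against 2 DMSO libraries, so the difference has no replicate check. *Tnf* and *Mlkl* differed most. *Mlkl* was at 7.85 FPKM in 4-OHT Nec-1 against 13.1 and 17.9 FPKM in 4-OHT DMSO, a log2 difference of -0.88. *Tnf* was at 7.06 FPKM against 13.6 and 13.9 FPKM, a log2 difference of -0.87. For both the Nec-1 library lay below each DMSO library, at 0.51 times the DMSO mean in FPKM. It lay below both for 7 of the 10 genes and above both for 0, where 49.3% of all genes tested lay below both and 25.5% above both. With median centring the counts were 4 below and 3 above, where 31.8% of all genes tested lay below and 42.3% above, and with upper quartile scaling 3 and 3, where the shares were 19.5% and 45.4%.

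Among the other 8 genes the differences were smaller. *Traf2* was at 2.56 FPKM against 3.45 and 3.66 (log2 difference -0.35), and *Rbck1* at 13.9 FPKM against 15.8 and 16.9 (log2 difference -0.22). *Ripk1* was at 7.84 FPKM, just under the 8.32 and 8.26 of 4-OHT DMSO, a log2 difference of -0.07 that turned to 0.04 with median centring and 0.12 with upper quartile scaling. *Cyld* at 2.03 and *Birc2* at 5.50 FPKM also lay just under both DMSO libraries (log2 differences of -0.13 and -0.10), and the sign of *Birc2* turned with both scalings and that of *Cyld* with upper quartile scaling. *Ripk3* at 45.2, *Tradd* at 38.1 and *Tnfrsf1a* at 32.8 FPKM lay between the 4-OHT DMSO libraries. The contrast was also fitted by limma over all 7 libraries, which assumes that the lone library varies like the other groups, and 0 of the 10 genes passed, beside 0.819% of all genes tested called higher and 1.02% lower (*Mlkl* adjusted p = 0.108 and unadjusted p = 0.00415, *Tnf* adjusted p = 0.162 and unadjusted p = 0.00994). The difference between the Nec-1 effects in the libraries labelled 4-OHT and in EtOH organoids was tested in that fit after the data were seen. It was -0.87 for *Mlkl* (SE 0.24, limma unadjusted p = 0.0135, adjusted p = 0.388) and -0.56 for *Tnf* (SE 0.29, limma adjusted p = 0.699), and none of the 10 genes passed.

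Markers of other cells and genes of the pathway moved in the same pair of groups. The Paneth cell markers summed to 14695 FPKM in 4-OHT Nec-1, below the 19155 to 19688 of 4-OHT DMSO. Goblet markers, at 1666 against 1864 to 2063 FPKM, and stem cell markers, at 14.0 against 21.3 to 29.1 FPKM, were lower too. General epithelial markers, at 2394 against 2638 to 3070 FPKM, were also lower. Enterocyte markers, at 1055 against 787 to 876 FPKM, and leukocyte markers, at 10.2 against 6.71 to 9.03 FPKM, were higher. So were enteroendocrine markers, at 455 against 406 to 450 FPKM. These are sums, and single markers did not all follow them. The library lay below both 4-OHT DMSO libraries for 6 of 6 Paneth, 6 of 6 general epithelial, 4 of 5 goblet and 4 of 5 stem cell markers. The same held for 1 of 5 enterocyte markers and the 1 tested tuft marker. The library lay above both for 3 of 5 enterocyte, 2 of 4 enteroendocrine, 2 of 3 tested leukocyte and 1 of 5 goblet markers. Of all genes tested 49.3% lay below both and 25.5% above both. These marker counts were not repeated with the other scalings. The part of these cells in the lower *Tnf* and *Mlkl* was not tested. *Zbp1* was at 0.891 FPKM in 4-OHT Nec-1 against 8.09 and 10.1 FPKM in 4-OHT DMSO (log2 difference -2.41), and *Cxcl10* at 1.32 against 6.45 and 6.64 FPKM (log2 difference -1.70). *Irf1* was at 6.89 FPKM against 12.2 and 14.1 (log2 difference -0.84), *Birc3* at 14.98 against 19.98 and 19.9 (-0.39) and *Junb* at 78.5 against 92.3 and 100.1 (-0.29). The library lay below both DMSO libraries for 4 of 7 ligands and receptors, 17 of 21 ubiquitin and kinase partners, 4 of 6 death-inducing partners, 10 of 13 chaperones and phosphatases and 11 of 14 TNF target genes, where 49.3% of all genes tested lay below both. Over the 5 lists this was 46 of 61 genes (75.4%). With median centring it was 31 of 61 (50.8%), where 31.8% of all genes tested lay below both. With upper quartile scaling it was 19 of 61 (31.1%), where the share of all genes was 19.5%.

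**Figure D4:**
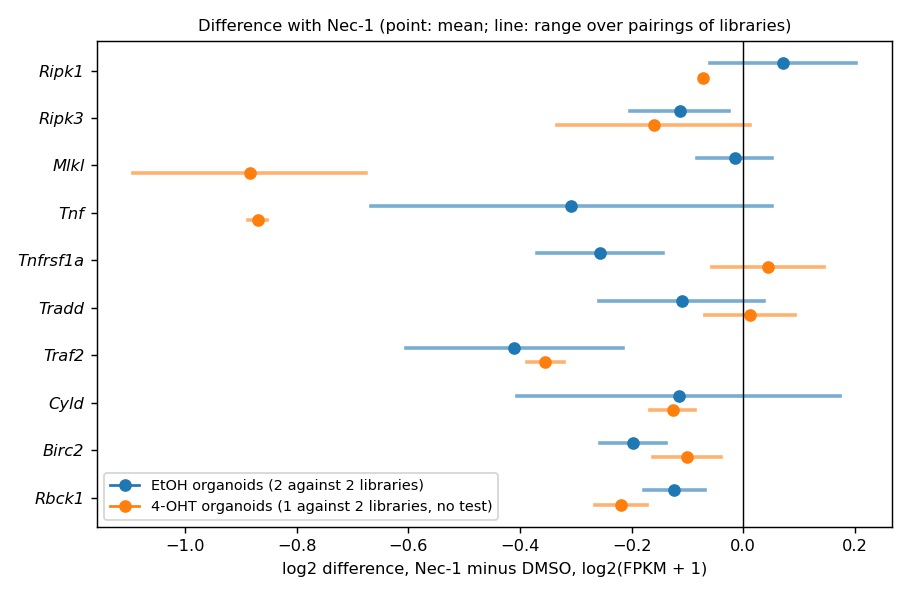
Difference between Nec-1 and DMSO on log2(FPKM + 1) (horizontal axis) for the 10 genes (vertical axis), in EtOH organoids (blue) and in the libraries labelled 4-OHT (orange, 1 Nec-1 library). Points are differences of group means and lines span the pairings of libraries. In orange *Mlkl* is at -0.88 and *Tnf* at -0.87, and in blue *Traf2* is farthest from 0 at -0.41.

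With Nec-1 present in both, the library labelled 4-OHT Nec-1 was set against the EtOH Nec-1 libraries, again without a replicate check. It shares libraries with both Nec-1 comparisons above. *Tnf* was at 7.06 FPKM against 0.497 and 1.07 (log2 difference 2.19), *Ripk1* at 7.84 against 3.47 and 4.03 (0.90), *Mlkl* at 7.85 against 3.56 and 3.95 (0.90), *Tradd* at 38.1 against 21.7 and 19.5 (0.86) and *Ripk3* at 45.2 against 28.7 and 32.4 FPKM (0.55). These are the 5 genes called in the DMSO groups, and the library lay above both EtOH Nec-1 libraries for each of them and for *Cyld* (0.32) and *Tnfrsf1a* (0.22). It was below both for *Birc2* (-0.18) and *Rbck1* (-0.10) and between them for *Traf2* (0.03). The count of 7 above and 2 below stands beside 50.4% and 38.0% of all genes tested. In the limma contrast, where the lone library has no spread of its own and is assumed to vary like the other groups, 4 of the 10 genes passed as higher and 0 as lower, beside 13.9% and 7.16% of all genes tested. They were *Tnf* (adjusted p = 0.00566), *Ripk1* (adjusted p = 0.00967), *Tradd* (adjusted p = 0.0122) and *Mlkl* (adjusted p = 0.0272), and *Ripk3* did not pass (adjusted p = 0.0683).

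Set side by side, the difference of *Mlkl* between the 4-OHT and EtOH labels was 1.77 log2 units with DMSO and 0.90 with Nec-1, that of *Tnf* 2.76 and 2.19 (3.44 and 3.10 with a pseudocount of 0.1, with ratios of mean FPKM of 11.5 and 8.998), and that of *Ripk1* 1.04 and 0.90. For *Tradd* the values were 0.73 and 0.86, and for *Ripk3* 0.60 and 0.55. *Mlkl* in 4-OHT Nec-1 thus stood, on the log2 scale, about midway between EtOH DMSO and 4-OHT DMSO, while *Ripk1* and *Tradd* stayed near their 4-OHT DMSO levels. These differences of differences are the test given above, which none of the genes passed.

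The genes whose level followed 3 of the 10 most closely over the 7 libraries were found by Pearson's r of log2(FPKM + 1) among the 12702 genes tested, as a description, since the libraries fall into groups. For *Ripk1* they were *Borcs6*, *Ythdc1* and *Ankib1*, each with r of 0.997. *Ythdc1*, which encodes a nuclear reader of m6A, was at 3.05 and 3.45 FPKM in EtOH DMSO, 9.41 and 9.43 in 4-OHT DMSO, and it was at 8.24 FPKM in 4-OHT Nec-1. For *Mlkl* they were *Trim6*, *Oasl2* and *Ddx60*, each with r of 0.997, and the last 2 are known as interferon-induced genes. *Ddx60* was at 0.2003 and 0.223 FPKM in EtOH DMSO, 12.9 and 19.1 in 4-OHT DMSO, with 2.98 in 4-OHT Nec-1. It was picked for its likeness to *Mlkl* over these same libraries, so a shared order of levels follows from the choice. *Trim6*, *Oasl2* and *Ddx60* reached 1 FPKM only in libraries labelled 4-OHT, so their place among the tested genes depends on their rise. For *Tnf* they were *Dusp10* (r 0.999), *Ncs1* (r 0.999) and *Tpcn2* (r 0.998), of which *Ncs1* and *Tpcn2* reached 1 FPKM only in libraries labelled 4-OHT. *Dusp10*, a phosphatase of stress-activated MAP kinases, was at 1.04 and 1.39 FPKM in EtOH DMSO, 6.06 and 6.00 in 4-OHT DMSO, with 3.87 in 4-OHT Nec-1.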

How the data were processed

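RNA-seq of 7 organoid libraries was used. The authors deposited FPKM, and the submitters' processing notes name HISAT2 2.1.0, StringTie 1.3.3b and mm10. The annotation release and use of strand are not given in the sources used here. The 2 CUT&Tag samples were not analysed here, and 0 columns were left unmapped. With limma 3.58.1 in R 4.3.3, log2(FPKM + 1) of all 7 libraries was fitted with a trend and 1 mean per group, leaving 3 residual degrees of freedom, for 12702 genes, those reaching 1 FPKM in 2 or more libraries. Benjamini-Hochberg adjustment used a threshold of 0.05. The fit was checked on 20 simulated data sets, for 4-OHT DMSO against EtOH DMSO. It called 58.6% of the genes changed by 1 log2 unit and 86.9% of those changed by 2. A mean of 4.61% of the called genes were unchanged ones. Smaller changes were not simulated, so a gene that was not called is not shown to be unchanged. The lone 4-OHT Nec-1 library was compared without a test, and its limma contrasts in the same fit are given as alternatives. The 10 genes and all lists were chosen with earlier results of these data known. The further genes named are, per limma comparison, the 5 largest called pathway changes, and the 3 genes most like *Ripk1*, *Mlkl* and *Tnf*, and *Mettl3*. Other genes were named after their values were seen. Python 3.11.15, pandas 2.3.3 and matplotlib 3.10.9 were used. Alternatives were other scalings, filters and pseudocounts (0.1 and 0.25), the replicate number as a block, no trend, only the libraries compared, and each library left out. The interaction contrast was added after the data were seen.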

Additional observations from a re-analysis of the deposited data

How the results depend on the processing

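Of the comparisons of 4-OHT DMSO with EtOH DMSO, *Ripk1* (log2 fold change 0.83 to 1.22), *Mlkl* (1.54 to 1.98) and *Tradd* (0.49 to 0.81) passed the limma threshold in 16 of 16 alternatives and *Tnf* (2.55 to 3.44) in 15 of 15, since it was not in the fit of genes at 1 FPKM in every library. *Ripk3* (0.36 to 0.77) passed in 13 of 16. With the added requirement of 1 log2 unit, which the study used, 3 genes were higher in place of 5. With median centring and with upper quartile scaling 1 gene, *Birc2*, was lower in place of 0. With 4-OHT Nec-1 against 4-OHT DMSO, 3 genes lay above both libraries and 4 below with median centring, and 3 above and 3 below with upper quartile scaling, in place of 0 and 7. Leaving out 1 of the 4-OHT DMSO libraries, so that 1 library stood against 1, gave 0 to 3 above and 7 to 10 below. The 3 above without the second 4-OHT DMSO library were *Ripk3*, *Tradd* and *Tnfrsf1a*. The shares of all genes were not counted with a library left out. The limma contrast called 0 below. Against EtOH Nec-1 it called 4 above and 0 below, in place of 7 and 2. Signs turned for small differences when libraries were left out, in 4-OHT DMSO against EtOH DMSO for *Tnfrsf1a* (-0.18 to 0.023), *Traf2* (-0.15 to 0.11) and *Rbck1* (-0.050 to 0.043), and with Nec-1 in EtOH organoids for *Ripk1* (-0.014 to 0.16), *Mlkl* (-0.074 to 0.043) and *Cyld* (-0.34 to 0.11). *Mlkl* was there at 0.084 with median centring and 0.025 with upper quartile scaling. In 4-OHT Nec-1 against 4-OHT DMSO, *Ripk1* was at 0.042 and 0.12 with these scalings and *Birc2* at 0.014 and 0.081. With upper quartile scaling *Cyld* was there at 0.018 and *Ripk3* at 0.050. In 4-OHT Nec-1 against EtOH Nec-1, *Traf2* was at -0.11 with median centring and -0.028 with upper quartile scaling, in place of 0.035. Without the first EtOH Nec-1 library it was at -0.034. The cause of these turns was not tested. Same-numbered libraries did not deviate together (r of deviations -0.040 to 0.0065 over 12702 genes), and with the replicate number as a block the 10 genes had 5 higher and 0 lower in 4-OHT DMSO and 0 called with Nec-1 in EtOH organoids, while over all genes 2788 were higher and 1909 lower in place of 3117 and 2120. Groups of 2 libraries, 1 lone library and unknown fragment counts limit the precision, most of all for genes near 1 FPKM such as *Tnf* and *Cyld* in EtOH organoids.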

Other observations

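The genes of the pathway that did not pass the filter on low values were at low levels. Of the 73 further genes, 12 were not tested. *Fasl*, the Fas ligand, was listed at 0 in all 7 libraries, and *Traf1* stayed at or below 0.0285 FPKM. *Lta* and *Ltb*, the lymphotoxin genes beside *Tnf*, were at 0.109 and 0.340 FPKM and at 0.132 and 0 FPKM in EtOH DMSO, at 0.910 and 0.657 FPKM and at 0.467 and 0.267 FPKM in 4-OHT DMSO. In 4-OHT Nec-1 they were at 0.702 and 0.254 FPKM. The neutrophil chemokine *Cxcl1* was at 0 and 0.0130 FPKM in EtOH DMSO, 0.541 and 0.678 in 4-OHT DMSO, with 0.529 in 4-OHT Nec-1. *Cxcl2* was at 0.0474 and 0 FPKM in EtOH DMSO, 0.687 and 0.580 in 4-OHT DMSO, with 0.278 in 4-OHT Nec-1. These levels were not tested, and the fragments behind them are unknown. *Tnfsf10*, which encodes TRAIL, was at 5.38 and 6.43 FPKM in the EtOH libraries with DMSO and 3.76 and 3.79 FPKM in those with Nec-1. In the libraries labelled 4-OHT it was at 3.90 and 4.15 FPKM with DMSO and 0.570 FPKM with Nec-1, so the 4-OHT Nec-1 library was lower than each of the other 6.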
